A study of Homo sapiens with 17 samples.

Results

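The cytosolic ribosomal protein genes are described here across all 6 groups of an acRIP-seq experiment in HEK293T cells. Members were chosen by symbol from the count table: names that start with RPL or RPS, go on with a number and end at most in A, X or L, plus RPLP0, RPLP1, RPLP2 and RPSA. The choice gave 83 of the 23368 genes in the table, with 33 genes of the small subunit (RPSA included), 47 of the large subunit and 3 of the stalk. HEK293T is a human embryonic kidney cell line. The acRIP-seq method uses an antibody to fish out poly(A) RNA that carries N4-acetylcytidine (ac4C), a modified cytidine written by the acetylase NAT10. WT cells were set beside siTDP43 cells, in which siRNA targets TARDBP, the gene of the RNA-binding protein TDP43. For both, the input poly(A) RNA was sequenced, along with what the anti-ac4C antibody (IP) and a rabbit immunoglobulin G control (IgG) brought down from it. WT IgG has 2 libraries and the other 5 groups have 3 each. The labels of the WT libraries name no control siRNA, so transfection and loss of TDP43 cannot be told apart, and the labels give no batch.

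Cytosolic ribosomes are built from a small subunit, which reads the mRNA, and a large subunit, which joins amino acids, and nearly every ribosomal protein is encoded by 1 gene or by a close pair of paralogues. RPLP0, RPLP1 and RPLP2 form the stalk of the large subunit, which recruits translation factors, and RPL5 and RPL11 join the 5S rRNA. The mRNAs of these genes are among the most abundant in growing cells, and many of them begin with a C followed by a run of pyrimidines at the very 5′ end, the TOP element, through which their translation is switched as a group. RPSA is also known as the laminin receptor precursor, RPS27A is made as a fusion with ubiquitin, and RPS3 was detected by the study among proteins that interact with NAT10.

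The start of the transcript is shown first because it is what most members share beyond their names. Of the members, 65 were matched by symbol to the RefSeq promoter table (GRCh38.p14). The rule asked for at least 5 C or T in a row, counted from a C within 3 bases of the annotated start. Bases before that C were not considered, so a stretch of C and T may open earlier. Such a run was found in 47 of these 65 (72.3%), against 12.9% of the 27240 other promoters in the table. The windows below, on the gene's own strand, hold 15 bases before and 15 bases from the annotated start. Capitals mark a run that meets this rule, and windows without capitals hold no run that does. RPLP2, RPL28, RPS28 and RPL24 were lower in siTDP43 input and RPS6 was higher, all with such a run. RPS27L, RPL15, RPL4 and RPL36AL were higher, with no run that meets the rule. In RPL36AL a run of C and T crosses the annotated start, but fewer than 5 of its bases remain when counted from a C within 3 bases. RPS4X and RPSA are the 2 genes that stand for the family, and both were lower, RPS4X without a run and RPSA with it. The windows are a selection. Of 17 tested members without a run, 10 were lower and 5 higher, and of 46 with a run, 41 were lower and 2 higher.
RPLP2 (chr11:809952-809981, plus): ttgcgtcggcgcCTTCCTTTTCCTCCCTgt
RPL28 (chr19:55385917-55385946, plus): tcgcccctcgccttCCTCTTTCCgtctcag
RPS28 (chr19:8321481-8321510, plus): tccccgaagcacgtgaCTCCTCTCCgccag
RPL24 (chr3:101686704-101686733, minus): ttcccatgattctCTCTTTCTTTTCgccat
RPS6 (chr9:19380222-19380251, minus): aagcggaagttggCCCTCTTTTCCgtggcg
RPS27L (chr15:63157463-63157492, minus): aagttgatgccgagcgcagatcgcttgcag
RPL15 (chr3:23916530-23916559, plus): ggcgctggggcctgctggaggagcttcacg
RPL4 (chr15:66504841-66504870, minus): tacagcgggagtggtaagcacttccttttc
RPL36AL (chr14:49620612-49620641, minus): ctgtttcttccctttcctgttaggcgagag
RPSA (chr3:39406705-39406734, plus): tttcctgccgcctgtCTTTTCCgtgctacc
RPS4X (chrX:72277234-72277263, minus): gcagtctccagccccaatttctacgcgcac
A match is a description of these letters, and a window rests on 1 annotated start of each gene.

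Total counts per library were between 3013989 and 36583436, lowest in siTDP43 IgG (3013989 to 3436811) and highest in WT input (27718784 to 36583436). TARDBP, the target of the siRNA, had 150 to 157 CPM (counts scaled to a common library size by the TMM method over all 17 libraries) in WT input and 98.6 to 106 CPM in siTDP43 input, a log2 difference of -0.57 ± 0.05 (SE, adjusted p = 6.55e-13, edgeR). VIM, KRT8 and KRT18, which HEK293T cells express, had counts in every group, at levels that differed between them. From WT input to siTDP43 input, the mean of KRT8 went from 193 to 39.1 CPM, that of VIM from 788 to 262 CPM and that of KRT18 from 122 to 83.6 CPM, and KRT8 had 387 to 465 CPM in WT IgG and 12.8 to 16.2 CPM in siTDP43 IgG. The part of such differences in the results on the members was not tested. PAX2, also chosen as a marker of HEK293T, averaged 0.88 CPM in WT input and had 0 counts in siTDP43 IP and siTDP43 IgG. It reached at most 8.20 CPM, in WT IP. PTPRC, ALB and MYH6, markers of blood, liver and heart, reached at most 2.68 CPM. Of the 83 members, 78 passed the filter on low counts in every comparison. RPL3L and RPL10L, paralogues of RPL3 and RPL10, had at most 26 and 18 counts in any library and passed in some comparisons. RPL21 had at most 2 counts, and RPL21P28 covers 99.3% of the exon bases of RPL21. Overlaps also touch RPS10 (62.5% of its exon bases, by RPS10-NUDT3), RPL17 (59.7%, by RPL17-C18ORF32 and a snoRNA gene), RPL13A (58.4%, by RPL13AP5), RPL10 (47.5%, by DNASE1L1) and RPL36A (15.6%, by RPL36A-HNRNPH2), so their levels are uncertain. Members have many processed pseudogenes, and reads were counted where they aligned uniquely.

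The members took 19.3% ± 0.29 (SD, n = 3) of all gene counts in WT input and 11.7% ± 0.15 (n = 3) in siTDP43 input. In the pull-downs the order was the other way round. Their share was 14.2% ± 0.23 (n = 3) in WT IP. In WT IgG it was 18.3% ± 0.40 (n = 2). It reached 28.0% ± 0.76 (n = 3) in siTDP43 IP and 31.0% ± 0.12 (n = 3) in siTDP43 IgG. No library of any group had a share within the range of another group. Small subunit genes held 8.05% of counts in WT input, 4.60% in siTDP43 input, 12.3% in siTDP43 IP and 12.8% in siTDP43 IgG. The 3 stalk genes held 1.10% in WT input and 0.531% in siTDP43 input, and between 1.30% and 1.62% on average in each of the pull-down groups. The stalk's share in WT IP (1.54%) was above that in WT input through RPLP2, since RPLP0 and RPLP1 had lower levels in WT IP than in WT input. Of the summed CPM of the members, 50% came from 22 genes in WT input and from 17 in siTDP43 input.

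**Figure D1:**
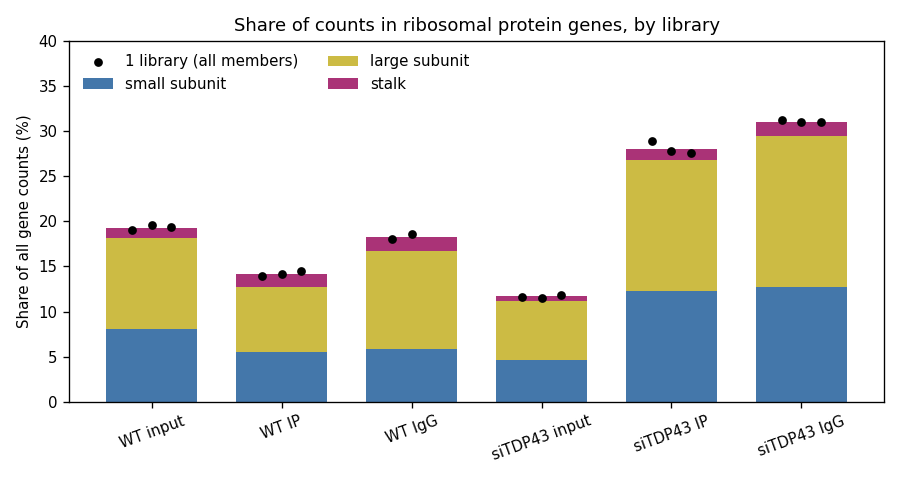
Share of all gene counts that fell in the 83 ribosomal protein genes, in percent, for each of 17 libraries (points) with the group mean split into small subunit, large subunit and stalk (stacked bars). The siTDP43 input libraries sit lowest, at 11.5% to 11.8%, and the siTDP43 IgG libraries highest, at 31.0% to 31.2%.

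Levels between genes were compared as CPM per kilobase of annotated exon. In WT input, RPS18 was highest at 9602 ± 87.6 CPM per kb (SD, n = 3), followed by RPLP1 at 8216 ± 125 and RPL39 at 7086 ± 394. RPS4X followed at 6737 ± 154 CPM per kb, whereas RPSA had 1789 ± 43.2. Among the members tested in the inputs, the lowest were RPL3L (0.339 ± 0.10), RPL36A (2.08 ± 0.16) and RPS10 (15.8 ± 1.17). The annotated exons of RPL28 sum to 5183 bases, the most of the tested members, which lowers its level on this scale to 193 ± 1.63 CPM per kb. In siTDP43 input the first places went to RPS18 (6155 ± 140), RPS6 (5303 ± 180) and RPL7 (4858 ± 89.0 CPM per kb), so RPLP1 and RPL39 had left the first 3. RPLP2 stood first in both WT pull-downs, at 14409 ± 790 CPM per kb in IP (n = 3) and 14234 ± 755 in IgG (n = 2), which differ by less than their spread. RPL37A was first in siTDP43 IP, at 16995 ± 188 CPM per kb, and RPL39 in siTDP43 IgG, at 27483 ± 2381.

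siTDP43 input was compared with WT input to ask how the mRNA levels of the members differed without pull-down. In such bulk libraries a lower level in each cell and a lower level in fewer cells cannot be told apart. Most members were lower after siTDP43: 65 of the 79 tested members fell and 8 rose (edgeR quasi-likelihood test, adjusted p under 0.05 over all genes tested). Over all 14036 genes tested, 40.6% fell and 38.6% rose. The median log2 difference was -0.76 over the members and -0.05 over all genes. All 3 stalk genes fell, as did 27 of 31 small subunit genes and 35 of 45 large subunit genes. Of 46 tested members with a TOP start, 41 fell and 2 rose, with a median log2 difference of -0.75. Of 17 without a TOP start by the rule above, 10 fell and 5 rose, with a median of -0.48. These 17 include the paralogues RPS27L and RPL36AL. They are not shown to lack a TOP element, since 1 annotated start was read for each gene. Members that hold a snoRNA gene in their span had a median of -0.78 (23 of 26 fell), and those without -0.73 (42 of 53 fell).

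The largest falls were those of RPS2, RPL28 and RPLP2. RPS2, a protein near the mRNA entry channel of the small subunit, had 4521, 4842 and 4648 CPM in WT input and 499, 467 and 467 CPM in siTDP43 input. All siTDP43 libraries were far below the WT libraries, a 9.73-fold fall (log2 difference -3.28 ± 0.04, SE, adjusted p = 8.76e-34). RPL28, a large subunit protein, had 992, 1008 and 996 CPM in WT input and 195, 174 and 189 CPM in siTDP43 input (5.35-fold lower, adjusted p = 1.20e-29). RPLP2, of the stalk, had 1563, 1632 and 1579 CPM in WT input and 370, 353 and 389 CPM in siTDP43 input (4.27-fold lower, adjusted p = 8.49e-29). The groups did not overlap for any of the 3 genes. Non-overlap was a condition for naming the largest rises and falls between a pair of groups, here and below, so it adds no support. The other stalk genes fell by less, with log2 differences of -1.20 ± 0.03 for RPLP1 and -0.53 ± 0.04 for RPLP0, the scaffold that holds the other stalk proteins.

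RPS27L, the paralogue of RPS27 and known as a p53 target, rose most. It had 66.9, 63.7 and 63.3 CPM in WT input and 153, 151 and 158 CPM in siTDP43 input (2.39-fold, adjusted p = 4.08e-21). Its partner RPS27 went the other way, from 2225, 2331 and 2311 CPM to 1357, 1357 and 1584 CPM (log2 difference -0.67 ± 0.04). RPL7 rose from 2066, 2417 and 2336 CPM to 3985, 4131 and 4083 CPM (1.80-fold, adjusted p = 3.97e-18), with no overlap. RPS6, the small subunit protein that growth signals phosphorylate, rose from 2880, 2997 and 2994 CPM to 4316, 4304 and 4569 CPM (1.49-fold, adjusted p = 3.05e-16). RPL4, RPS10, RPL15, RPL36AL and RPL10 made up the rest of the 8, with log2 differences of 0.10 to 0.39, and the libraries of RPL10 overlapped between the groups.

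**Figure D2:**
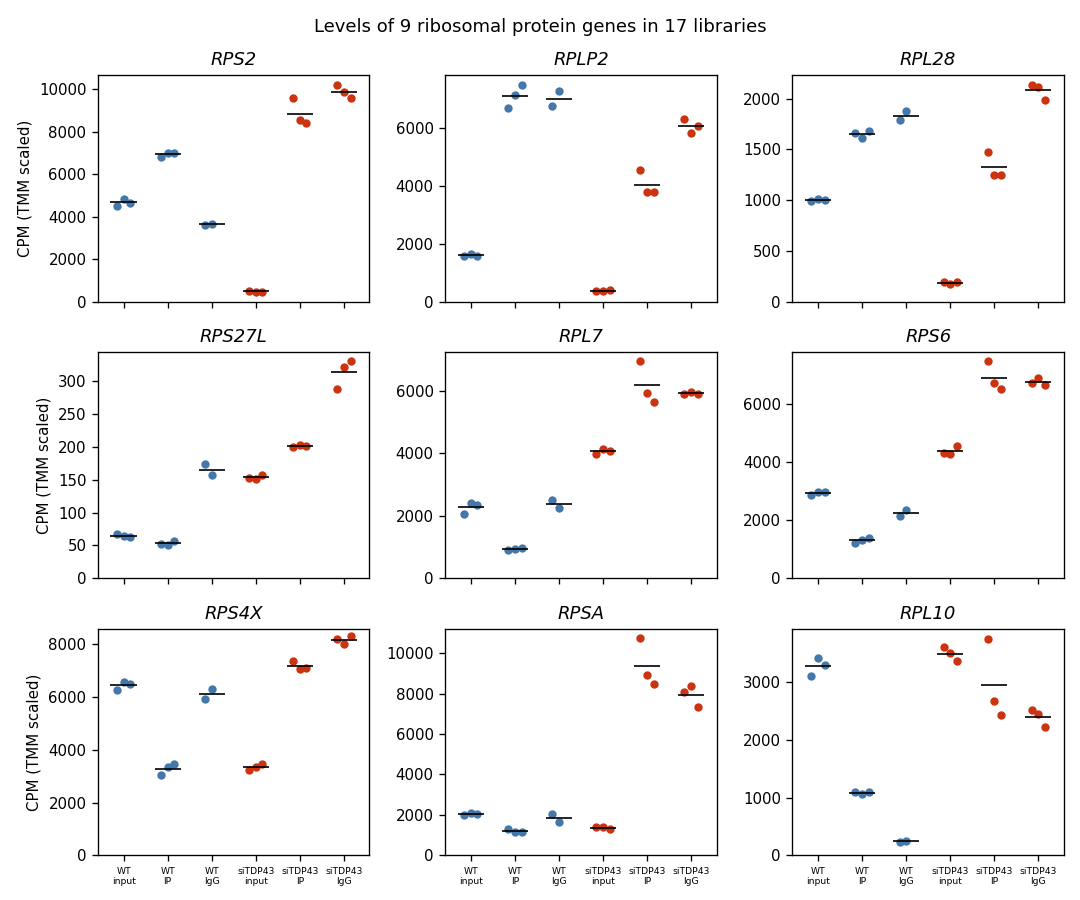
CPM (TMM scaled) of 9 ribosomal protein genes in each library of the 6 groups, as points, with a bar at the group mean; blue marks WT and red siTDP43. RPS2, RPLP2 and RPL28 are lowest in siTDP43 input, and RPL10 is lowest in WT IgG, at 240 and 251 CPM.

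RPS4X fell from 6277, 6563 and 6480 CPM in WT input to 3231, 3344 and 3461 CPM in siTDP43 input (log2 difference -0.94 ± 0.03, adjusted p = 1.07e-21). RPSA fell from 2019, 2109 and 2030 to 1421, 1381 and 1288 CPM (-0.58 ± 0.04, adjusted p = 4.13e-15). Both sets of libraries were apart. RPL11 fell by 1.20 on the log2 scale, whereas its 5S rRNA partner RPL5 fell by 0.21. RPS3 fell by 0.26, RPL13A by 0.46, RPS27A by 0.89 and RPL41, which encodes the shortest of these proteins, by 0.81. RPL3 was called lower at a log2 difference of -0.08, where 1 library decides the call: without WT input replicate 2 or 3, or without siTDP43 input replicate 2, it was lost. The call of RPL10 (0.10) was lost without WT input replicate 1 or siTDP43 input replicate 1.

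Members are short, with a median exon length of 786 bases against 3055 over all genes tested in the inputs, while their median exon GC content (49.3%) was close to that of all genes (49.1%). TGTGTG, a UG-rich stretch of the kind TDP43 binds, was present on the transcript strand of the exons in 21 of 79 members (26.6%) and in 66.6% of all genes. Other sets of shorter genes were also below all genes. The share was 35.5% in oxidative phosphorylation subunits (median exon length 877 bases) and 32.9% in mitochondrial ribosomal proteins (1237.5 bases). It was 56.5% in other TOP mRNAs (1890 bases). Across the 79 members, the log2 difference between the inputs had a Spearman correlation of 0.38 with exon length and -0.19 with exon GC content, as a description over genes measured in the same libraries. Across all 14036 genes these were 0.09 and -0.32. When a trend with exon length was removed from each library, 51 members were lower and 16 higher, and the members' median went from -0.76 to -0.25 (all genes 0.03). The sign changed for 6 called members, among them RPL5 (0.16) and RPL3 (0.19). With a GC trend removed it changed for 5, among them RPL3 (0.08) and RPL36AL (-0.01).

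Other sets of genes stand beside the members for orientation. Of 23 other mRNAs known for a TOP element, among them translation factors, 17 fell and 6 rose in siTDP43 input, with a median log2 difference of -0.47. Among 76 proteins of the mitochondrial ribosome, 20 fell and 44 rose, with a median of 0.24. Among 76 tested subunits of oxidative phosphorylation, 37 fell and 24 rose, with a median of -0.14.

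In WT cells, IP was compared with input and with IgG to ask which members the anti-ac4C antibody enriched. Few were higher in IP. Against input, 4 of 79 tested members were higher and 27 lower (adjusted p under 0.05 and a difference over 2-fold), where 30.2% and 27.3% of 14751 genes were. The median log2 difference was -0.68 over the members and 0.01 over all genes. Against IgG, 3 members were higher (RPL10, RPL17 and RPS28) and 13 lower, where 35.2% and 17.8% of all genes were, with medians of -0.48 over the members and 0.29 over all genes. With total count scaling these counts were 5 and 11, and with the length trend removed 2 and 41. WT IgG itself differed from input, with 10 members higher and 18 lower (24.4% and 36.6% of all genes) and medians of -0.16 over the members and -0.39 over all genes. These last counts turned round, to 23 higher and 7 lower (median 0.69), with the length trend removed, and to 19 and 7 (median 0.38) with the GC trend removed.

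RPS28, a small subunit protein, was called higher in IP against both. It had 998, 978 and 935 CPM in WT input, 2902, 2598 and 2763 CPM in WT IP and 950 and 944 CPM in WT IgG. The WT IP libraries were all above both other groups, by 1.51 ± 0.05 over input (adjusted p = 4.80e-19) and by 1.52 ± 0.06 over IgG (adjusted p = 4.30e-17) on the log2 scale. With a trend with GC content or length removed, the difference of RPS28 in WT IP against WT IgG was 0.63 or 0.81, under the 2-fold condition. RPLP2, by contrast, was high in both pull-downs, with 6703, 7127 and 7481 CPM in WT IP and 6755 and 7281 CPM in WT IgG. It was 4.49-fold above input in IP, and the IP and IgG libraries overlapped (log2 difference 0.00 ± 0.05, adjusted p = 0.983). RPS10 and RPL36A, both with overlapped exons and few counts, were likewise higher in IP than in input, by 2.27 ± 0.09 and 2.59 ± 0.10 on the log2 scale. They were higher still in IgG, by 3.19 ± 0.09 and 3.83 ± 0.11 over input.

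The largest falls from input to IP in WT were those of RPL15 (4.35-fold), RPL41 (4.15-fold) and RPS15A (4.04-fold). RPL15, a core large subunit protein, had 3371, 3639 and 3594 CPM in input and 790, 820 and 814 CPM in IP, with no overlap. It was also low in WT IgG, at 1012 and 966 CPM. RPL41 had 774, 1053 and 917 CPM in input, 200, 227 and 232 CPM in IP and 222 and 234 CPM in IgG, so that the pull-downs overlapped each other but not the input. RPL10, which completes the large subunit late in its assembly, had 3107, 3422 and 3306 CPM in input and 1106, 1068 and 1098 CPM in IP, but only 240 and 251 CPM in IgG. It therefore stood 4.38-fold higher in IP than in IgG (adjusted p = 2.47e-19) while its IP was 2.99-fold below its input. RPL17, which is sparse (16 and 26 counts in the WT IgG libraries), was likewise called lower in IP than in input and higher in IP than in IgG, by 3.63-fold. RPL39L, the testis-enriched paralogue of RPL39, had 63.2, 68.3 and 66.1 CPM in input, 95.7, 93.3 and 89.0 CPM in IP and 709 and 633 CPM in IgG. It was thus 7.34-fold lower in IP than in IgG, and RPL23 (3.63-fold) and RPS27L (3.13-fold) followed.

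**Figure D3:**
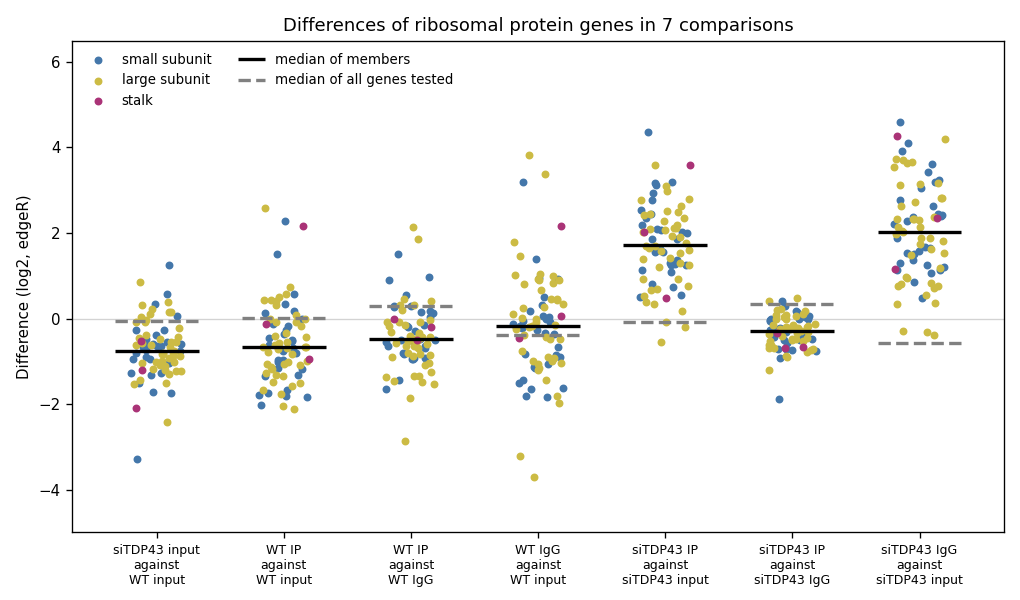
Log2 difference (edgeR) of each tested ribosomal protein gene in 7 comparisons between pairs of groups, coloured by small subunit, large subunit and stalk; the black bar is the median of the members and the dashed grey bar that of all genes tested. The members lie mostly above all genes where siTDP43 IP or IgG is set against siTDP43 input (medians 1.72 and 2.03) and below them in the other comparisons except WT IgG against WT input.

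In siTDP43 cells, most members were higher in IP than in input. These input libraries are also those in which 65 of 79 tested members were below WT input, so the results are not independent. Against input, 61 of 78 tested members were higher in IP and 0 were lower, where 26.8% of 12746 genes were higher and 25.4% lower. Without the 2-fold condition, 2 members were lower, as were 5294 of the 12746 genes. The median log2 difference was 1.72 over the members and -0.09 over all genes. All 31 tested small subunit genes had positive differences and 27 of them were called, against 32 of 44 for the large subunit and 2 of 3 for the stalk. Of members with a TOP start by the rule above, 40 of 46 were called higher, and of those without it by that rule, 10 of 17. Other TOP mRNAs were called higher in 8 of 23 cases, mitochondrial ribosomal proteins in 14 of 76, and oxidative phosphorylation subunits, whose exon length is nearer to that of the members (median 877 bases), in 34 of 74. With the length trend removed, 30 of the 78 members were higher and their median was 0.69 (all genes -0.08). The sign changed for 5 called members, among them RPL41 (-0.11), RPL36AL (-0.11) and RPS18 (-0.17).

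The IgG control was high in these cells too. Against siTDP43 input, 63 of 78 members were higher in siTDP43 IgG and 0 were lower, where 24.7% of all genes were higher and 41% lower, and the medians were 2.03 and -0.58. Without the 2-fold condition, 2 members were lower, as were 6406 of 12746 genes. With the length trend removed, 44 members were higher, their median was 1.10 (all genes 0.11), and the sign changed for 3 called members, RPS18 (-0.26) among them. When IP was set directly against IgG, 0 of 78 members were higher and 2 were lower, RPS10 (3.66-fold) and RPL39 (2.30-fold), where 34% of all genes were higher and 15% lower. Without the 2-fold condition 9 members were higher and 51 lower, where 5725 and 3637 of 12746 genes were. With that condition DESeq2 also gave 0 and 2 members. The members' median was -0.29 and that of all genes 0.33. With the GC trend removed, 29 members were lower and 0 higher. The siTDP43 IgG libraries were the shallowest of the series, and the part of depth in these differences was not tested.

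RPS2 gave the largest difference in siTDP43 cells. It had 499, 467 and 467 CPM in input, 9600, 8576 and 8394 CPM in IP and 10200, 9865 and 9580 CPM in IgG. All pull-down libraries were far above the input, 20.6-fold in IP (log2 difference 4.37 ± 0.06, adjusted p = 6.76e-24) and 24.2-fold in IgG. IP and IgG overlapped for RPS2, with a log2 difference of -0.23 ± 0.05. The low siTDP43 input of RPS2 also made its fall between the inputs, so these folds are not independent of that fall. In WT cells RPS2 had 6815, 6979 and 7000 CPM in IP and 3602 and 3677 CPM in IgG. RPLP2 followed, with 4550, 3782 and 3770 CPM in IP and 6311, 5829 and 6054 CPM in IgG (12.1-fold and 19.2-fold over input). RPL39L had 25.6, 26.4 and 28.3 CPM in input, 270, 283 and 312 CPM in IP and 424, 439 and 397 CPM in IgG. RPL39 had 5410, 4739 and 4952 CPM in IP and 11230, 9979 and 11853 CPM in IgG, with no overlap.

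RPSA had 10736, 8933 and 8497 CPM in siTDP43 IP and 8082, 8401 and 7350 CPM in siTDP43 IgG, and these were the highest of its groups. Its IP was 2.94 ± 0.07 above siTDP43 input on the log2 scale (adjusted p = 4.57e-20), where WT IP had been 0.76 below WT input. RPS4X had 7340, 7049 and 7106 CPM in siTDP43 IP and 8178, 7988 and 8320 CPM in siTDP43 IgG, 1.25 ± 0.04 and 1.52 ± 0.04 above input. RPL17, RPL15 and RPL10 were the 3 members with a negative difference between siTDP43 IP and input (-0.54, -0.20 and -0.09), and none was called.

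**Figure D4:**
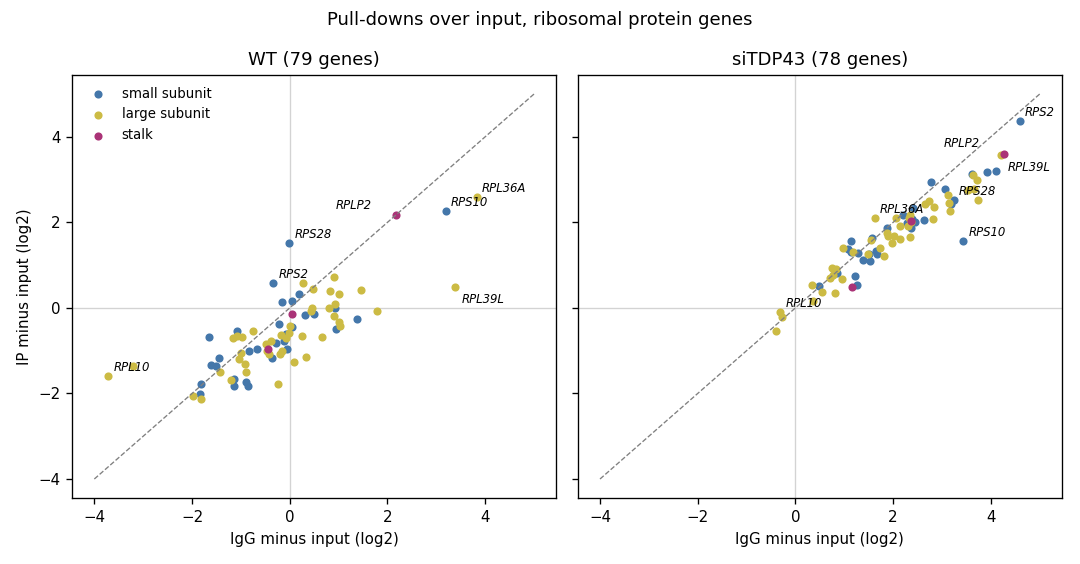
Log2 difference of IP over input (vertical) against that of IgG over input (horizontal) for each tested ribosomal protein gene, in WT (left, 79 genes) and siTDP43 (right, 78 genes); both axes share the input libraries and the dashed line marks equal differences. In siTDP43 nearly all genes lie to the upper right, RPS2 farthest, while in WT they lie on both sides of 0.

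Whether a pull-down's difference from its reference itself differed between WT and siTDP43 was tested as an interaction over all 17 libraries. The interactions over input use the same libraries as the comparison of the inputs, so they are not independent of it. For IP over input, 76 of 80 tested members rose in siTDP43 relative to WT and 2 fell, where 31.5% of 15165 genes rose and 36.3% fell, with medians of 2.18 over the members and -0.19 over all genes. The sets named for orientation rose too, with 21 of 23 other TOP mRNAs (median 1.59), 65 of 76 mitochondrial ribosomal proteins (1.04) and 69 of 77 oxidative phosphorylation subunits (1.41). With the length trend removed the members' median was 1.55. The 76 included all 3 stalk genes, 26 of 26 members with a snoRNA gene inside and 50 of 54 without. RPS29 rose most (3.66 ± 0.08, adjusted p = 1.15e-30), from 1946, 2054 and 2062 CPM in WT input and 1215, 1317 and 1401 CPM in WT IP to 668, 669 and 795 CPM in siTDP43 input and 5773, 5957 and 5784 CPM in siTDP43 IP. RPS2 (3.64 ± 0.07) and RPSA (3.55 ± 0.10) came next. RPS10 (-0.86 ± 0.15) and RPL36A (-0.62 ± 0.23, adjusted p = 0.0172) fell. The call of RPL36A was lost without siTDP43 input replicate 3, siTDP43 IP replicate 1 or siTDP43 IP replicate 3, and that of RPS10 with the GC trend removed. With the length trend removed 2 called members changed sign, RPL36AL (from 0.68 to -0.30) among them.

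In 14 of 78 members the IP was called lower than input in WT and higher than input in siTDP43. The share of all genes with both calls was not counted. All 14 members rose in the interaction, which follows from how they were chosen, since it uses the same libraries. They were RPS3A, RPS7, RPS14, RPS15A, RPS18, RPS23, RPS25 and RPS27 of the small subunit and RPL10A, RPL24, RPL27, RPL30, RPL31 and RPL41 of the large one. RPS27 may serve as the example, with 837, 902 and 935 CPM in WT IP and 5309, 5121 and 4961 CPM in siTDP43 IP, below and above the input of the same cells.

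For IgG over input, which shares the input libraries, 74 of 80 members rose in siTDP43 relative to WT and 2 fell, where 27% of all genes rose and 37.4% fell, and the medians were 1.97 and -0.48. RPS2 (4.73 ± 0.08), RPS29 (3.99 ± 0.09) and RPS21 (3.87 ± 0.09) rose most. RPL36A (-2.41 ± 0.27) and RPS27L (-0.33 ± 0.10) fell. Without WT IgG replicate 1, or with DESeq2, RPS27L was not called, and with the GC trend removed it was 0.72. With the length trend removed 65 members rose and 8 fell, with a median of 1.05, and the sign changed for 4 called members, RPL36AL (-0.78) and RPL39L (-0.45) among them.

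For IP over IgG, in contrast, the members split: 35 of 80 rose in siTDP43 relative to WT and 20 fell, where 34.9% of all genes rose and 25.9% fell. Their median was 0.16 and that of all genes 0.24. RPL39L (2.31 ± 0.10), RPL36A (1.79 ± 0.26) and RPL23 (1.67 ± 0.08) rose most, and each of these stood higher in WT IgG than in WT IP. RPS28 (-2.19 ± 0.09), RPL10 (-1.85 ± 0.13) and RPS15 (-1.35 ± 0.09) fell most among members that averaged at least 100 counts over the libraries compared. RPL17, which averaged 95.2 counts there, fell by 1.96 (SE 0.38). RPS28 had 1660, 1520 and 1411 CPM in siTDP43 IP and 2475, 2418 and 2294 CPM in siTDP43 IgG, so that the IP was above IgG in WT and below it in siTDP43. RPL10 had 3757, 2676 and 2438 CPM in siTDP43 IP and 2527, 2460 and 2235 CPM in siTDP43 IgG, which overlapped. With DESeq2 size factors 28 members rose and 34 fell, and with the GC trend removed 30 rose and 33 fell, so more members rose under one scaling and more fell under another. The sign changed for 8 called members with the GC trend removed, RPL5 (-0.13) and RPS27L (-0.11) among them.

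**Figure D5:**
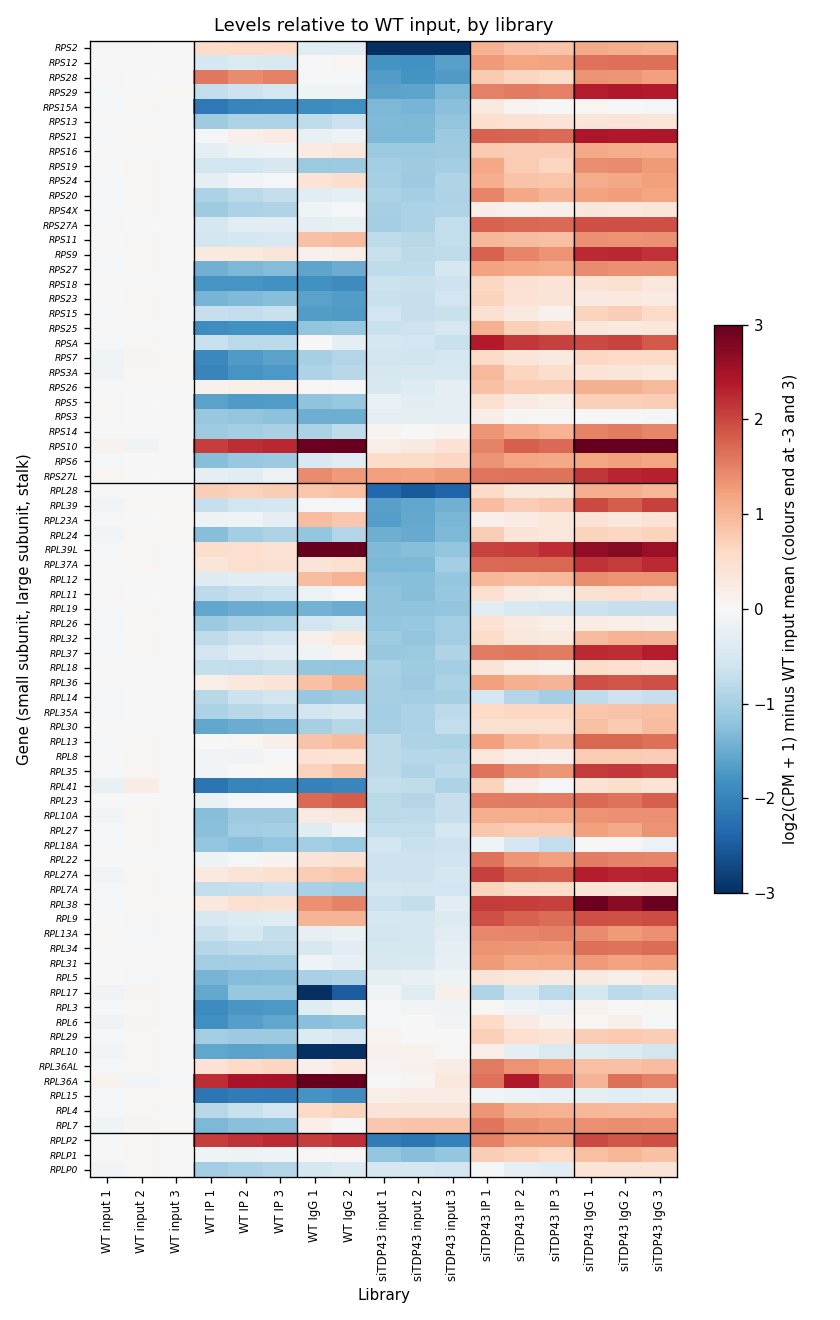
Level of ribosomal protein genes tested in all 7 comparisons between pairs of groups (rows, grouped into small subunit, large subunit and stalk and ordered by the difference between the inputs) in each of 17 libraries (columns), as log2(CPM + 1) minus the mean of WT input. Most rows are blue in siTDP43 input and red in siTDP43 IP and IgG, and the libraries of a group look alike.

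The paralogue pairs differed in level and in direction. In WT input RPS27 had 6521 ± 160 CPM per kb and RPS27L 59.6 ± 1.82, RPL39 had 7086 ± 394 and RPL39L 93.7 ± 3.61, and RPL36AL had 378 ± 13.4 and RPL36A 2.08 ± 0.16. RPL39 and RPL39L both fell in siTDP43 input, by 1.54 and 1.29 on the log2 scale, whereas RPS27 fell and RPS27L rose. RPL36A (0.16 ± 0.15) was not called, and RPL36AL rose by 0.15 ± 0.04. RPL3 had 4361 ± 91.7 CPM per kb and RPL10 1414 ± 68.7, while their muscle and testis paralogues RPL3L and RPL10L were near 0 in every group. In WT, IgG over input separated RPL39L (3.37 ± 0.06) from RPL39 (-0.02 ± 0.06).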

How the data were processed

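Poly(A) RNA of HEK293T cells was sequenced in 17 libraries, grouped by sample title. The authors prepared SMART-seq2 libraries, trimmed reads with Trim Galore 0.6.7, aligned them to hg19 with STAR 2.7.10a and assigned reads that mapped to 1 place to genes with featureCounts 2.0.2. The values the authors deposited are counts, not normalised. Their annotation release, strand and read pair settings are not given in the sources used here. From 81.3% to 95.9% of counts of 1 to 20 were even, so mates appear to have been counted singly. Input RNA was diluted to a set concentration before library preparation, whereas pull-down RNA was too dilute to measure and entered by volume, so the pull-down libraries started from unknown amounts of RNA. Reads of the acetylated spike-in were not analysed here.

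Tests used edgeR 4.0.16 under R 4.3.3 (quasi-likelihood F test, two-sided, TMM, filterByExpr with a minimum count of 10, Benjamini-Hochberg over all genes tested). The inputs (6 libraries), the WT libraries (8), the siTDP43 libraries (9) and all 17 libraries (interactions) were fitted separately. A call means an adjusted p under 0.05 and, between groups of the same cells, also a fold over 2. DESeq2 1.42.0 was an alternative. Replicates are separate libraries with no stated culture, so p-values measure the spread between libraries, which may be technical. No library duplicated another (replicate pairs gave a chi-square of 3.26 to 9.43 per degree of freedom). Tests were tried on simulated data.

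The members and all gene lists were chosen with earlier results of these data known. Genes were named by rule: RPS4X, RPSA, the stalk, RPL5, RPL11, RPS27A, RPS3, RPL13A, RPL41 and paralogue pairs, the 3 highest and 3 lowest levels per length in WT input, and in each comparison the 3 largest rises and falls among called members that averaged 100 counts or more and whose groups did not overlap. Exon length and GC content came from the hg19 positions in the table, sequences from RefSeq. Columns of the authors' comparisons were not present in the table. Values of some single genes are not reported here.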

Additional observations from a re-analysis of the deposited data

Results flagged for a closer look

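These results on the ribosomal protein genes are listed because the genotypes differed in a direct test (edgeR interaction over 17 libraries, adjusted p under 0.05). For IP over input, 76 of 80 members rose in siTDP43 relative to WT and 2 fell, where 31.5% and 36.3% of all genes did. For IgG over input, 74 rose and 2 fell (27% and 37.4% of all genes). For IP over IgG, 35 rose and 20 fell, which is 43.8% and 25.0% of the members and near the 34.9% and 25.9% of all genes, and with DESeq2 size factors 28 rose and 34 fell. In 14 of 78 members, RPS27 and RPL41 among them, IP was called lower than input in WT and higher than input in siTDP43. The interaction was called in all 14, which follows from that choice in the same libraries and adds no support. The share of all genes with both calls was not counted. The interactions of IP over input and IgG over input share the input libraries with each other and with the comparison of the inputs. No group was large enough for a test of single outlying libraries.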

How the results depend on the processing

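Of 354 counts of members called under the alternatives, 318 stayed within 1.5 times the value above and 36 moved. Of 2868 values of named members that were called, 2791 kept their call, 63 lost it and 14 changed sign. Without the 2-fold condition, higher and lower counts were 15 and 57 for WT IP against input, where 6238 and 6216 of 14751 genes were. They were 16 and 56 for WT IP against IgG (6948 and 5009 genes) and 27 and 40 for WT IgG against input (5239 and 7054 genes). For siTDP43 IP against IgG they were 9 and 51, where 5725 and 3637 of 12746 genes were. In each siTDP43 pull-down against input 2 members were lower (5294 genes for IP and 6406 for IgG). Total count scaling gave 5 higher for WT IP against IgG and 1 lower for siTDP43 IP against IgG, and moved the median of all genes by more than 0.1 (log2), from -0.58 to -1.13 for siTDP43 IgG against input. DESeq2 size factors gave 34 lower (DESeq2's Wald test 33) for the change of IP over IgG and 1 lower for that of IgG over input (Wald test 1). No low-count filter, or all 17 libraries in one fit, gave 1 lower for siTDP43 IP against input. The GC trend removed gave 37 lower for WT IP against IgG, 19 higher and 7 lower for WT IgG against input, 29 lower for siTDP43 IP against IgG, 33 lower for the change of IP over IgG, and 1 lower for the changes of IP and of IgG over input. Signs changed for RPL36AL in siTDP43 input against WT input (-0.0144), RPL3 in siTDP43 input against WT input (0.080), RPL5 (-0.13) and RPS27L (-0.11) in the change of IP over IgG, and RPS27L (0.72) in that of IgG over input. The length trend removed gave 16 higher between the inputs, 41 lower for WT IP against IgG, 23 higher and 7 lower for WT IgG against input, 30 higher for siTDP43 IP against input, 9 lower for siTDP43 IP against IgG, and 8 lower for the change of IgG over input. Signs changed for RPL5 (0.16) and RPL3 (0.19) between the inputs, RPL41 (-0.11), RPL36AL (-0.11) and RPS18 (-0.17) in siTDP43 IP against input, RPS18 (-0.26) in siTDP43 IgG against input, RPL36AL in the changes of IP (-0.30) and IgG (-0.78) over input, and RPL39L (-0.45) in the latter. Counts over all genes with the GC or length trend removed are not given here, and the cause was not tested. Leaving out a library moved the count of lower members to 1 to 3 for the change of IP over input and to 1 to 2 for that of IgG over input, and a lone WT IgG library was taken to vary like the others. Whether libraries with the same replicate number were paired is not known. Their deviations correlated at -0.03 to 0.09, and those of differently numbered libraries at -0.09 to 0.06. Such correlations cannot show how the experiment was designed. With the replicate number as a block, 8 members were higher and 65 lower between the inputs, 61 were higher in siTDP43 IP against input, and the change of IP over IgG had 37 higher and 21 lower. Depth limits RPL3L, RPL10L, RPL17 and RPL36A most, and enrichment is relative within each library.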
